A study of Mus musculus with 20 samples.

Results

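The uncoupling proteins of mouse brown adipose tissue (BAT) were described through the mRNAs of Ucp1, Ucp2 and Ucp3, which are 3 of the 55471 gene IDs in each deposited count table. They were taken by name as a family, with earlier results of these data known, and all 3 passed the expression filter. Messenger RNA of whole BAT was sequenced in 20 libraries, 5 in each of 4 groups. The groups were labelled CEBPB WT at RT (room temperature, WT_RT), CEBPB WT after 4 h of cold stress (WT_cold), adipose specific CEBPB KO at RT (KO_RT) and the same knockout after 4 h of cold stress (KO_cold). The title of the series sets the response of brown fat to acute cold as the question. The Cre driver of the knockout, the strain, age and sex of the mice and any allele carried by the WT mice are not given in the labels, and no statement says that the 5 libraries of a group came from separate mice, so the p values measure the spread between libraries. The targeted gene, Cebpb, which encodes the transcription factor C/EBP beta, had 104.5 ± 19.9 CPM (counts per M scaled counts, where M is the SI prefix mega; SD, n = 5) at RT and 143 ± 22.4 in the cold in WT, and 0.564 ± 0.253 and 1.92 ± 0.277 in KO.

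Uncoupling proteins are carriers of the inner mitochondrial membrane and belong to the SLC25 family of mitochondrial carriers. UCP1 is the heat-producing protein of brown fat: when noradrenaline from sympathetic nerves starts lipolysis, the released fatty acids activate UCP1, protons flow back into the matrix without making ATP, and the energy leaves as heat. Transcription of Ucp1 is raised by the cyclic AMP pathway through enhancers and a promoter that bind nuclear receptors and CREB or ATF factors. UCP2 is found in many tissues and is prominent in immune cells, and UCP3 is found mainly in skeletal muscle and brown fat. Neither is held to be a main source of heat, and roles in fatty acid handling, metabolite export and the control of reactive oxygen species have been put forward for them.

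Ucp1 (ENSMUSG00000031710.4) lies on chromosome 8 from 83290352 to 83298452 on the plus strand (GENCODE M21, GRCm38) and has 1 annotated transcript of 1636 bases. Ucp3 (ENSMUSG00000032942.14) and Ucp2 (ENSMUSG00000033685.13) are neighbours on chromosome 7, both on the plus strand. Ucp3 spans 100472990 to 100486432 and has 4 transcripts, and Ucp2 starts 6905 bases after its end, spans 100493337 to 100502020 and has 11 transcripts. The last part of Ucp2 overlaps Dnajb13 on the opposite strand. Counts of the reverse strand were used, and reads on the strand opposite to a member were 0.112% to 0.382% of the reads counted at Ucp1, 0.0985% to 0.802% at Ucp2 and 0.168% to 0.694% at Ucp3 over the 20 libraries.

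The sequences before the first annotated start of each gene, from RefSeq promoters of GRCm38.p6, are given because Ucp1 rose and Ucp3 fell in the cold in WT. Ucp1 and Ucp2 have more CpG dinucleotides there (12 and 13) than Ucp3 (3), and their GC contents are 64.8%, 63.3% and 54.6% for Ucp1, Ucp2 and Ucp3, against a median of 52.4% over the promoters of the table. Capitals mark every match, on either strand, to TGACG, the core of the cyclic AMP response element, or AGGTCA, the nuclear receptor site. The reverse complement of the former is capitalised as CGTCA.
Ucp1, chr8:83290098-83290347, plus strand: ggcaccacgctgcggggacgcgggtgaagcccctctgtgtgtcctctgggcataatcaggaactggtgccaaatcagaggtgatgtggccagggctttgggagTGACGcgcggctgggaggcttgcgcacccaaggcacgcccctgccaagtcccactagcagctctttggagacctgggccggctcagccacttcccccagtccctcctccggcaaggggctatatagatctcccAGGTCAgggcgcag
Ucp2, chr7:100493108-100493336, plus strand: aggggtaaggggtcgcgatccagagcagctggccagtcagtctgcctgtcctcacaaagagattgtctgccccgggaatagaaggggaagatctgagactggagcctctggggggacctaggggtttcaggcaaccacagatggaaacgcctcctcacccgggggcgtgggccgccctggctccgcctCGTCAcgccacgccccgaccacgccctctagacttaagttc
Ucp3, chr7:100472741-100472989, plus strand: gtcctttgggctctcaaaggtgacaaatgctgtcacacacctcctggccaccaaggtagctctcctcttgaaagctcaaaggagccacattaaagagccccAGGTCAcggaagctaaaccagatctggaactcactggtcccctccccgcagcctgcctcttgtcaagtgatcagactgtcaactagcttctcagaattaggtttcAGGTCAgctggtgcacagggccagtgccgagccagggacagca
Distances are counted from the first base annotated in either RefSeq or GENCODE, which for Ucp1 is base 83290348, ahead of the GENCODE start, and for Ucp2 and Ucp3 is the start given above. TGACG occurs once upstream of Ucp1, 147 to 143 bases before its start, and once upstream of Ucp2, on the minus strand, 41 to 37 bases before its start. AGGTCA occurs at 14 to 9 bases before the start of Ucp1, and at 148 to 143 and 43 to 38 bases before that of Ucp3. TGACG was found in 17.8% and AGGTCA in 14% of all 32851 promoters of the table at the length of the Ucp1 sequence. The C/EBP motif TTGCNNAA and the whole response element TGACGTCA were found upstream of none of the 3 genes, and in 9.56% and 1.55% of promoters of that length. These letters are a description of the window and not sites shown to be bound.

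Libraries held 27.07 to 55.18 M gene counts, of which 28.8% to 36.0% came from mitochondrially encoded genes. Markers of mature and brown adipocytes were present in every library, with no marker of either list at 0. In the cold their sums were lower in KO without overlap. The mature list had 9966 to 13827 CPM in WT_cold and 9247 to 9465 in KO_cold, and the brown list 5873 to 7335 and 4921.5 to 5775. There 3 of 8 mature and 2 of 10 brown markers were called lower in KO and 0 higher, where 4.19% of all tested genes were lower. The part of this in the Ucp2 and Ucp3 values was not tested. Lymphocyte markers were low throughout, with sums of 1.73 to 8.59 CPM over 13 genes, and 5 of the 11 tested fell in the cold in each genotype. The 7 white adipocyte markers summed to 93.7 to 177 CPM at RT and 326 to 1166 CPM in the cold. Of 5 tested, 1 rose and 1 fell in each genotype. For comparison, 26.2% of all tested genes rose and 30.2% fell in the cold in WT, and 27.5% and 31.7% in KO. WT_RT replicate 4 and WT_cold replicate 5 lay between the temperatures on the first principal component (-23.4 and 26.6, where the other libraries lay between -56.3 and -39.5 at RT and between 37.6 and 51.8 in the cold), so results that change without both are given with and without them. In bulk tissue, fewer cells of a type and less RNA per cell cannot be told apart. All tests were edgeR quasi-likelihood F tests with Benjamini-Hochberg adjustment over 15233 genes, and a gene is said to have risen or fallen only where its adjusted p was under 0.05.

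Ucp1 was by far the highest of the 3 mRNAs, and Ucp2 the lowest. Levels can be compared between genes only per length: in CPM per kilobase of exon (RPKM), Ucp1 had 3895 ± 843 (SD, n = 5) in WT at RT, 7329 ± 529 in WT in the cold, 3647 ± 527 in KO at RT and 7933 ± 443 in KO in the cold. Ucp3 had 70.5 ± 11.7, 49.5 ± 9.88, 64.8 ± 4.96 and 68.2 ± 10.9 RPKM in the same order. Ucp2 had 4.73 ± 1.47, 5.85 ± 1.04, 5.05 ± 1.11 and 9.09 ± 1.99 RPKM. Thus the order Ucp1, Ucp3, Ucp2 was the same in all 20 libraries. By RPKM, Ucp1 ranked 1 among 15195 nuclear-encoded genes in all 10 cold libraries; at RT it was second only to Scd1, a desaturase of fatty acid synthesis, in 9 libraries and ranked 1 in WT_RT replicate 4. As a share of nuclear-encoded gene counts, Ucp1 took 0.983% ± 0.190 at RT and 1.67% ± 0.103 in the cold in WT, and 0.903% ± 0.124 and 1.83% ± 0.0834 in KO (SD, n = 5).

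Ucp1 rose after 4 h of cold in both genotypes, and no difference between the genotypes passed the test. In WT_RT its CPM were 5691, 6473, 4852, 6282 and 8565 in replicates 1 to 5, and in WT_cold they were 10835.5, 11283, 12548, 12702 and 12581. In KO_RT they were 7322, 5497, 6118, 5029 and 5867, and in KO_cold 11755.5, 12985.5, 13632.5, 13360.4 and 13159.6. The 10 cold libraries lay above the 10 RT libraries without overlap, and the highest RT value, 8565 CPM, was WT_RT replicate 5. In WT, Ucp1 rose by 0.91 ± 0.116 on the log2 scale (SE; 95% interval 0.67 to 1.15; adjusted p = 8.27e-07), a 1.88-fold rise. In KO it rose by 1.12 ± 0.116 (0.88 to 1.36; adjusted p = 4.47e-08), a 2.18-fold rise. Of all tested genes 56.4% changed in WT and 59.2% in KO, of which those that rose were 26.2% and 27.5% of the tested genes, so a call in these comparisons is common. Groups lay wholly apart and higher in the cold, as for Ucp1, in 18.9% of tested genes in WT and 21.6% in KO.

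Ucp1 overlapped between the genotypes at both temperatures. Knockout against WT gave a log2 difference of -0.09 at RT (95% interval -0.33 to 0.14; adjusted p = 0.808) and 0.11 in the cold (-0.12 to 0.35; adjusted p = 0.654). On the linear scale the intervals ran from 0.794-fold to 1.10-fold at RT and from 0.917-fold to 1.28-fold in the cold. The knockout's cold response exceeded that of WT by 0.21 (-0.13 to 0.55; adjusted p = 0.732), and by 0.08 without WT_RT replicate 5. At RT 0 of the 3 mRNAs differed between genotypes in edgeR and DESeq2 alike, and 0 of 3 reached an unadjusted p under 0.05; 2.7% of all tested genes were called. In the interaction 0 of 3 were called in either tool and 1 of 3 had an unadjusted p under 0.05 in edgeR, while 0.742% of all tested genes were called.

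**Figure D1:**
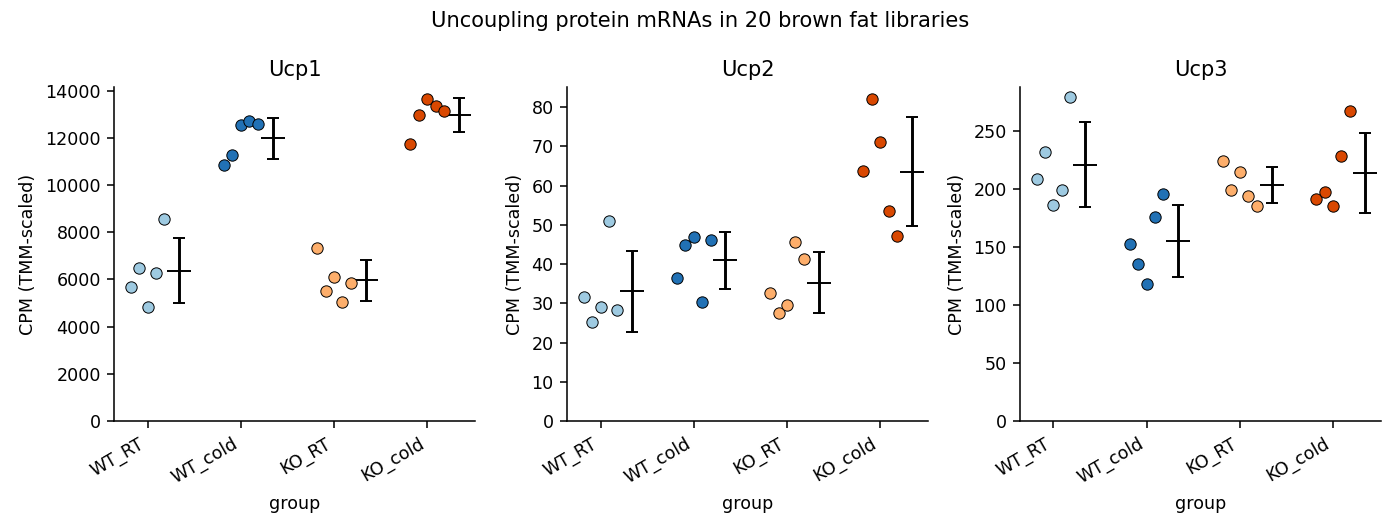
CPM (scaled by the trimmed mean of M values, TMM) of Ucp1, Ucp2 and Ucp3 in the 20 libraries, 5 per group; points are libraries, and the bar and whiskers are the mean and SD. Ucp1 in the cold lies above all RT libraries in both genotypes, Ucp3 is lowest in WT_cold (155 ± 31.0) and Ucp2 is highest in KO_cold (63.5 ± 13.9).

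Ucp3 fell in the cold in WT, had no called change in KO, and was higher in KO than in WT in the cold, but the difference between the cold responses did not pass the test. Its CPM in WT_RT were 209, 231, 186, 199 and 279 in replicates 1 to 5, and in WT_cold 152, 135, 118, 176 and 195. In KO_RT they were 224, 199, 215, 194 and 185, and in KO_cold 191, 197, 185, 228.5 and 267. In WT, Ucp3 fell in the cold by 0.51 ± 0.131 on the log2 scale (95% interval -0.78 to -0.23; adjusted p = 0.00254), to 0.703 times its RT level; 30.2% of tested genes fell in WT. The groups overlapped by WT_cold replicate 5, which at 195 CPM lay above WT_RT replicate 3. In KO the log2 difference was 0.07 (95% interval -0.20 to 0.35; adjusted p = 0.654), and it ran from 0.0093 without KO_cold replicate 5 to 0.14 without KO_cold replicate 3. KO_cold exceeded WT_cold by 0.46 ± 0.131 (0.19 to 0.74; adjusted p = 0.0342), a 1.38-fold rise, and the groups overlapped by KO_cold replicates 1 and 3 and WT_cold replicate 5. In that comparison 7.7% of tested genes were called, 3.51% as higher and 4.19% as lower. The fall in WT and this difference share the WT_cold libraries. The difference between the cold responses themselves was 0.58 (0.19 to 0.97; adjusted p = 0.197, unadjusted p = 0.00524). Without both intermediate libraries the fall in WT was -0.61 (adjusted p = 0.000962) and the difference between KO_cold and WT_cold was 0.56 (adjusted p = 0.0129). The call in the cold comparison of genotypes was lost without WT_cold replicate 1, 2 or 3 or without KO_cold replicate 4 or 5 (adjusted p up to 0.104). It was also lost with no expression filter (0.44, adjusted p = 0.113) and with only the groups compared in the fit (0.46, adjusted p = 0.087).

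Skeletal muscle genes were also lower in the cold, and since Ucp3 is a muscle gene their values stand here. The 18 muscle markers (myosins, troponins, creatine kinase and others) summed to 58.5 to 1609 CPM at RT and 50.1 to 91.6 CPM in the cold in WT, and to 84.6 to 715 and 44.6 to 50.04 CPM in KO. Per library, 0 to 7 of the 18 were at 0 at RT and 1 to 6 in the cold in WT, and 0 to 2 and 5 to 7 in KO. In each genotype 17 of 18 fell in the cold, where 30.2% of all tested genes fell in WT and 31.7% in KO. As a description over 20 libraries that share depth and groups, the Pearson correlation of Ucp3 with the muscle markers was 0.26, and 0.07 within groups. With the white adipocyte markers it was -0.53 and -0.83 within groups, and with the mature adipocyte markers 0.28 and 0.66. The sum of the white adipocyte list is mostly Npr3, a natriuretic peptide receptor, which rose by 3.08 in WT and 3.17 in KO, while Lep, the leptin gene, fell in both. The part of these markers in the Ucp3 values was not tested. WT_RT replicate 4 had 7 muscle markers at 0 and 199 CPM of Ucp3, and WT_RT replicate 1 had the highest muscle sum and 209 CPM. In a fit that also held the mean of these muscle markers, Ucp3 fell in WT (-0.49, adjusted p = 0.0198) and differed between genotypes in the cold (0.47, adjusted p = 0.0478). The markers themselves fell in the cold in both genotypes, so such a fit cannot fully separate muscle from cold.

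**Figure D2:**
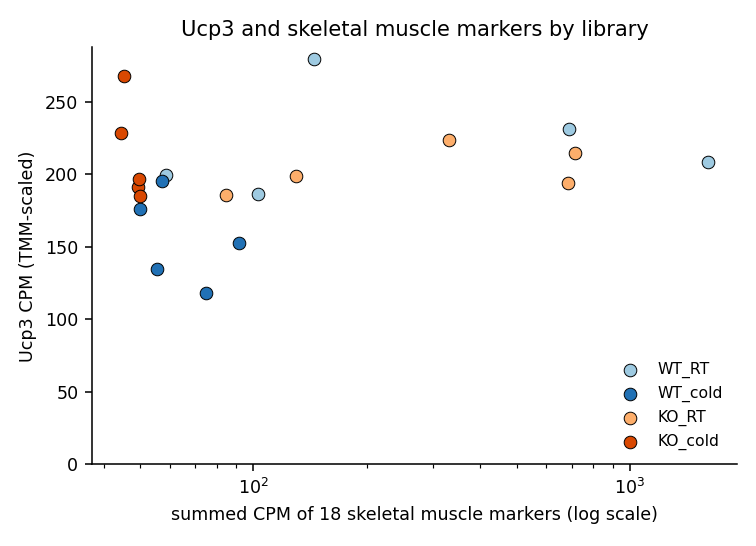
CPM of Ucp3 (vertical) against the summed CPM of 18 skeletal muscle markers (horizontal, log scale) in 20 libraries, 5 per group. Ucp3 lies between 118 and 279 CPM over a range of muscle sums from 44.6 to 1609, and the low values are WT_cold libraries.

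Ucp2 rose in the cold in KO from a low level, and its difference in WT did not pass the test. Its CPM in WT_RT were 31.6, 25.3, 29.0, 51.0 and 28.3 in replicates 1 to 5, and in WT_cold 36.5, 44.8, 46.9, 30.3 and 46.0. In KO_RT they were 32.6, 27.4, 29.7, 45.5 and 41.2, and in KO_cold 63.8, 82.1, 71.0, 53.6 and 47.0. The KO groups did not overlap, although KO_cold replicate 5, at 47.0 CPM, was close to KO_RT replicate 4. In KO, Ucp2 rose by 0.85 ± 0.202 on the log2 scale (95% interval 0.42 to 1.27; adjusted p = 0.00145), or 1.80-fold. In WT the difference was 0.31 ± 0.201 (-0.11 to 0.73; adjusted p = 0.204), and without both intermediate libraries it was 0.50 (adjusted p = 0.0328). WT_RT replicate 4, at 51.0 CPM, was the highest of its group, and without it the difference was 0.55 (adjusted p = 0.0136).

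In the cold, KO exceeded WT in Ucp2 by 0.63 ± 0.200 (95% interval 0.21 to 1.05; adjusted p = 0.0641), with no overlap of the 5 and 5 libraries; 3.26% of tested genes were higher in KO_cold without overlap. DESeq2 gave an adjusted p of 0.0125 and the fit without both intermediate libraries 0.0305, so the call changed with the processing. The difference between the cold responses was 0.54 (-0.06 to 1.14; adjusted p = 0.556), and 0.33 without WT_RT replicate 4. With the muscle marker mean in the fit, the rise of Ucp2 in KO in the cold was 0.53 ± 0.275 (SE; adjusted p = 0.130). The difference of Ucp2 in WT was then 0.13 (adjusted p = 0.654). Muscle sums of KO_RT (84.6 to 715 CPM) and KO_cold (44.6 to 50.04 CPM) did not overlap, so this fit cannot separate muscle from cold in KO. Ucp2 is prominent in macrophages, and 15 macrophage markers summed to 126 to 156 CPM at RT and 145 to 206 CPM in the cold in WT, and to 136 to 198 and 164 to 203 CPM in KO. For Ucp2 the correlation with the white adipocyte markers was 0.73 over the 20 libraries and 0.56 within groups, and with the macrophage markers 0.38 and -0.08. In the cold 3 of 15 macrophage markers rose and 1 fell in WT, and 4 rose in KO, with no marker at 0 in any library. These counts were not above the shares of all tested genes, of which 26.2% rose and 30.2% fell in WT and 27.5% rose in KO. With the macrophage marker mean as a term, the rise of Ucp2 in KO was 0.87 (adjusted p = 0.00243).

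**Figure D3:**
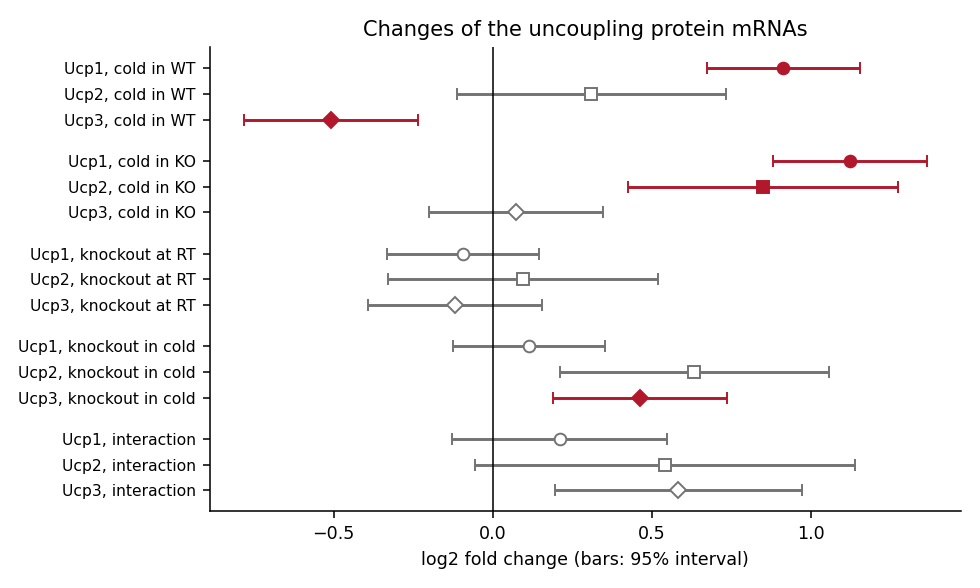
Log2 fold changes of Ucp1, Ucp2 and Ucp3 in 5 comparisons with 95% intervals; filled red symbols passed the edgeR quasi-likelihood test. Ucp1 rose in the cold in both genotypes, Ucp2 was called in the cold in KO and Ucp3 in WT, and none of the 3 was called in the interaction.

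The ratio of Ucp1 to Ucp3 was higher in every cold library than in any RT library. Per length it was 55.02 ± 4.42 (SD, n = 5) at RT and 152 ± 31.6 in the cold in WT, and 56.1 ± 5.43 and 118 ± 17.3 in KO. The ratio of Ucp1 to Ucp2 was 879 ± 308 at RT and 1289 ± 290 in the cold in WT, and 756 ± 206 and 909 ± 214 in KO. The ratio of Ucp3 to Ucp2 was 16.0 ± 5.31 and 8.81 ± 2.85 in WT, and 13.4 ± 3.36 and 8.005 ± 3.07 in KO. The sizes of these ratios depend on the gene length used, but the comparison between groups does not. For Ucp2 in WT_RT, the longest transcript gave 8.29 RPKM where the union of exons gave 4.73. Over the 20 libraries the log2 CPM of Ucp1 and Ucp2 had a Pearson correlation of 0.59, but within groups, as deviations from the group means, it was -0.14. Ucp2 and Ucp3 had -0.21 and -0.51 in the same way, and Ucp1 and Ucp3 -0.20 and 0.55. These 20 points share libraries and are a description.

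Factors that raise Ucp1 transcription moved in both directions in the cold. For each list of genes, the shares of all tested genes to set beside its counts are 26.2% that rose and 30.2% that fell in WT, 27.5% and 31.7% in KO, and a median change of -0.05 in each. Of 24 activators, 8 rose and 12 fell in WT (median log2 change -0.11), and 9 rose and 13 fell in KO (median -0.32). The coactivator Ppargc1a rose by 3.24 ± 0.307 in WT and 3.78 ± 0.314 in KO, from 108 to 1025.5 CPM in WT. Cebpd, a C/EBP partner, rose by 1.19 and 1.58 and Zfp516, a zinc finger factor of brown fat, by 1.03 and 1.14. Cebpa changed by -1.99 in WT and -2.34 in KO, the nuclear receptor Esrrg by -1.35 and -1.44, and Ebf2, a factor of brown fat identity, by -1.12 and -1.61. The list holds the targeted Cebpb, which itself rose in the KO libraries (1.75) from near 0.

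In the cold, 1 activator was higher and 7 were lower in KO than in WT (median -0.07), the deleted Cebpb among the 7. Over all tested genes 3.51% were higher and 4.19% lower, with a median of 0.0021. Irf4, an interferon regulatory factor that works with Ppargc1a, had a log2 difference of -1.40 (adjusted p = 0.0206), Rxra of -0.54, Nfia of -0.50, Pparg of -0.47 and Ebf2 of -0.47. In the same comparison Ucp1 was not called (0.11). At RT 2 of 24 were lower, Cebpb and Zic1, where 2.7% of all tested genes were called. Of 9 tested repressors of Ucp1, 4 fell in WT in the cold (Rbl1 -1.39, Zfp423 -1.19, Twist1 -0.79, Nr1d1 -0.76), and in KO 5 fell and 2 rose, among them Nrip1 (0.99). In the cold Twist1 was higher (0.36) and Rb1 lower (-0.36) in KO than in WT. At RT 1 of the 9 was called, Twist1, which was higher in KO there too (0.39), where 2.7% of all tested genes were called.

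**Figure D4:**
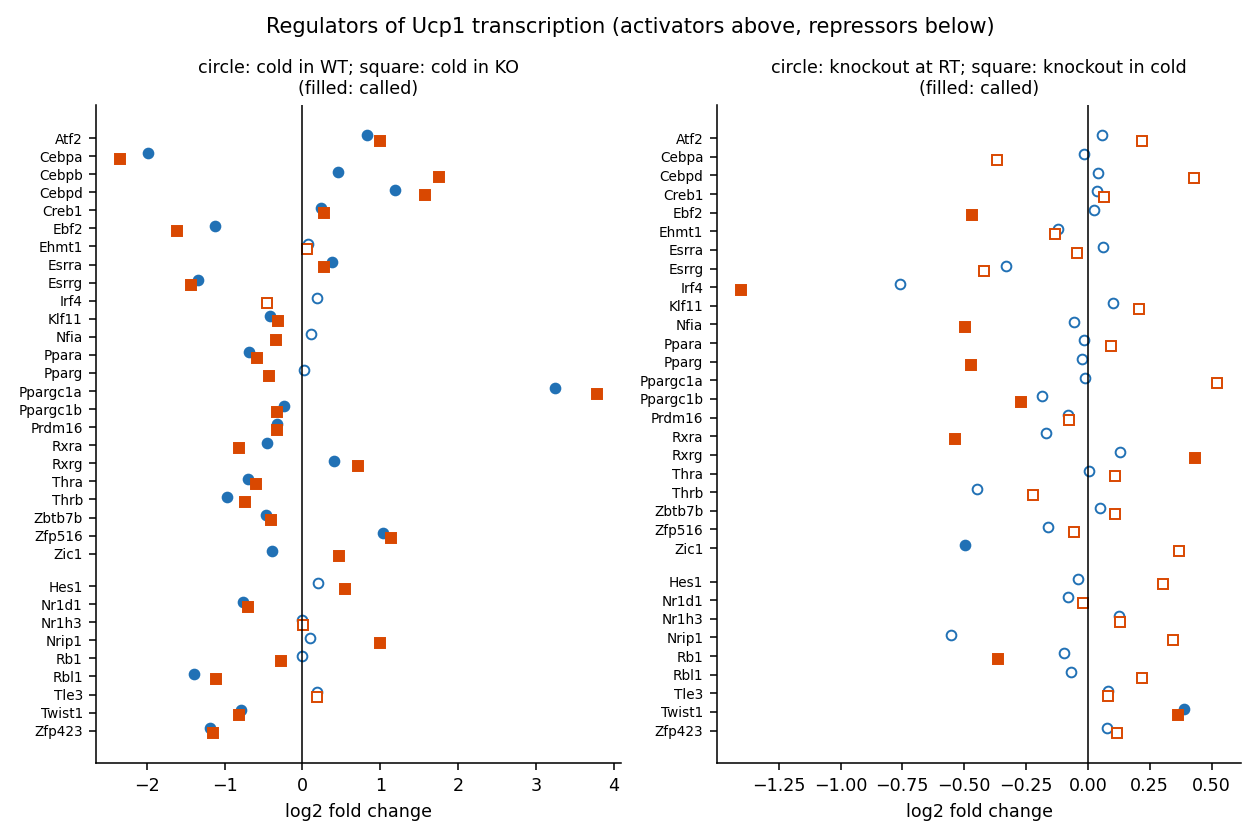
Log2 fold changes of 24 activators (top; Cebpb is left out of the genotype panel) and 9 repressors (bottom) of Ucp1 transcription, in the cold (left) and between genotypes (right); filled symbols passed the edgeR test. Ppargc1a has the largest rise in the cold (3.24 in WT), and Irf4 the largest fall in the knockout in the cold (-1.40).

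Inputs that reach Ucp1 from nerves and thyroid hormone went in both directions. Of 15 genes, 5 rose and 6 fell in the cold in WT (median -0.12) and 6 rose and 8 fell in KO (median -0.25). Dio2, which makes active thyroid hormone, rose by 3.58 ± 0.284 in WT (307 to 3673 CPM) and 4.03 ± 0.290 in KO, and its log2 difference of KO from WT at RT was -1.14. Adcy3, an adenylyl cyclase, rose by 1.21 and 1.65 and Prkar1a, a protein kinase A subunit, by 0.92 and 1.18. Adrb3, the beta 3 adrenergic receptor, changed by -0.70 in WT and -2.15 in KO, and the difference between these falls was called (-1.44 ± 0.295, adjusted p = 0.0261). In the cold 1 of 15 was higher and 2 were lower in KO than in WT, where 3.51% of all tested genes were higher and 4.19% lower.

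Of 18 genes that supply fatty acids to UCP1, 8 rose and 6 fell in the cold in WT (median 0.13) and 8 rose and 9 fell in KO (median -0.16). Lpl, the lipoprotein lipase that frees fatty acids from circulating triglycerides, rose by 0.85 ± 0.105 in WT and 1.32 ± 0.106 in KO, and Slc27a2, a fatty acid transporter, by 0.62 and 1.31. Lipe, the hormone-sensitive lipase, changed by -1.10 in WT and -1.05 in KO, and Slc27a1, a fatty acid transporter, by -1.37 and -1.13. Abhd5, the coactivator of the lipase ATGL, rose by 0.65 in WT and 0.31 in KO, and its log2 difference of KO from WT in the cold was -0.70. At RT 3 of 18 were lower in KO, including Lpl (-0.64), where 2.7% of all tested genes were called in either direction.

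Genes that often move with Ucp3 in fasting, targets of PPAR factors, did not all fall with it. Of 18, 5 rose and 4 fell in the cold in WT (median 0.03) and 6 rose and 3 fell in KO (median -0.06). Angptl4, an inhibitor of Lpl, changed by -0.95 in WT and -0.68 in KO, Acot1, a thioesterase, by -1.04 in WT, and Plin2, a lipid droplet protein, rose by 0.93 in WT and 0.70 in KO.

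Among 15 tested carriers related to the UCPs, 3 rose and 5 fell in the cold in WT (median -0.03) and 3 rose and 6 fell in KO (median -0.18). Slc25a27, known as UCP4, fell by 1.15 in WT, from 1.04 to 0.467 CPM, and by 1.03 in KO. Slc25a25, an ATP-magnesium carrier, rose by 1.40 ± 0.225 in WT and 2.20 ± 0.229 in KO and was 0.81 higher in KO in the cold (adjusted p = 0.0264). Of 10 tested antioxidant genes of mitochondria, 2 rose and 2 fell in WT (median -0.0048) and 1 rose and 4 fell in KO (median -0.10), and in WT these were Txn2 (0.49) and Sod2 (0.31) among the higher and Cat (-0.49) among the lower. Of 10 genes of heat production that does not need UCP1, 2 rose and 4 fell in WT (median -0.22) and 3 rose and 5 fell in KO (median -0.35). Atp2a2, the calcium pump SERCA2, rose by 1.14 in WT and 1.36 in KO. Atp2a1, Ryr1 and Ckmt2, which are muscle genes, were among the falls.

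Within 250 kb of Ucp1 lie 8 protein-coding genes, of which 5 were tested. In WT 4 of them rose, and in KO 4 rose and 1 fell. Tbc1d9 rose by 1.70 in WT and 2.02 in KO, Clgn by 3.50 and 3.14 from a low level (0.673 CPM over all libraries), Elmod2 by 1.68 and 0.79 and Scoc by 0.52 and 0.55. Rnf150, a ubiquitin ligase gene, went the other way in KO (-0.34) and was 0.04 and not called in WT. Over all tested genes 26.2% rose in WT and 27.5% in KO. The log2 difference of Elmod2 between KO and WT in the cold was -1.14, and that of Rnf150 -0.57. Near Ucp3, 10 of 11 genes were tested, and 2 rose and 2 fell in WT: Ppme1 (0.86) and Rab6a (0.45) rose, and C2cd3 (-0.27) and Fam168a (-0.24) fell. In KO 3 rose, Ucp2 among them, and 3 fell, among them Coa4 (-0.65). Of all tested genes 26.2% rose and 30.2% fell in WT and 27.5% and 31.7% in KO, so the counts near Ucp3 are close to or below the background.

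**Figure D5:**
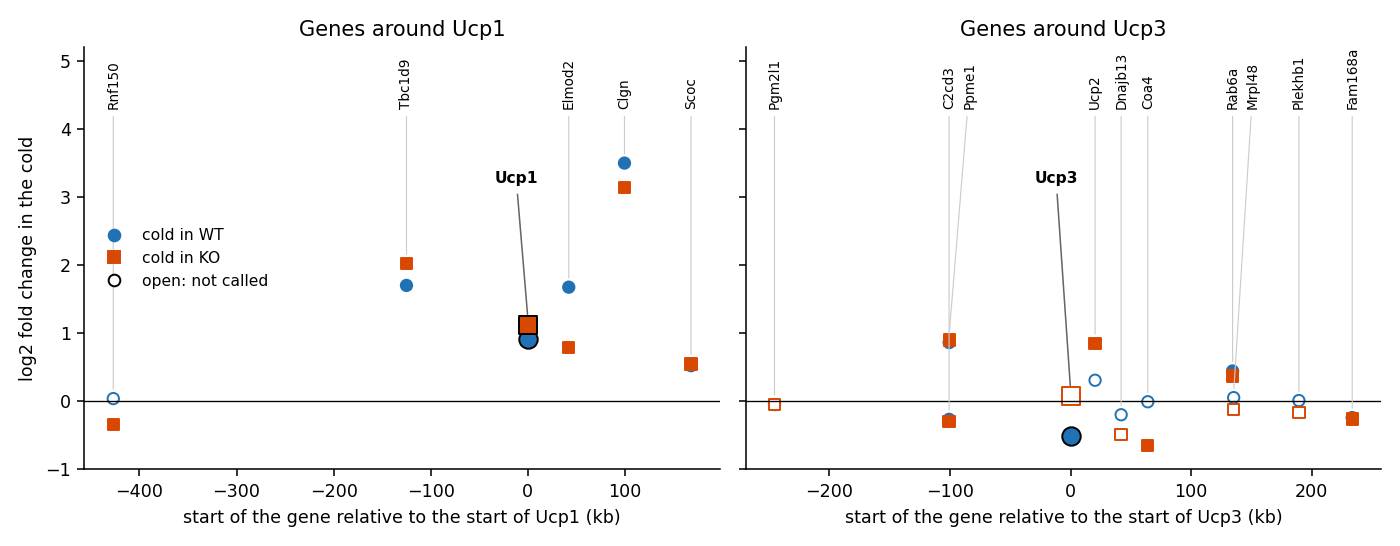
Log2 fold change in the cold in WT (circles) and KO (squares) of tested protein-coding genes within 250 kb of Ucp1 (left) and Ucp3 (right), by distance between starts (kb); open symbols were not called. Clgn (3.50 in WT) and Tbc1d9 (1.70 in WT) rose beside Ucp1, while near Ucp3 Ppme1 (0.86 in WT) had the largest rise in WT.

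Genes whose levels ran most like each member were listed over 11303 genes with at least 1 CPM on average. For Ucp1 the highest Pearson correlations of log2 CPM over 20 libraries were with Gk, glycerol kinase (0.985), Cux1 (0.976), Cars2, Usp8 and Cln8. Within groups, as deviations from group means, they were with Gk (0.904), Tmed5 (0.893), Lpl (0.862), Lamp2 and Imp4. For Ucp3 they were Loxl1 (0.838), Stk11, Plekhg3, Lrp11 and Srl, and within groups Otop1, a proton channel (0.905), Adal, Hikeshi, Rbks and Rgs7. For Ucp2 they were Ccl11 (0.908), Cfap36, Rpl36a, Far1 and Adamts2, and within groups Degs1 (0.892), Cfap54, Abhd2 and Pgm5. These points share libraries and depth, and the correlations are a description.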

How the data were processed

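Poly(A) RNA of mouse BAT was sequenced in 20 libraries with a stranded kit, per the labels' protocols. The submitters' processing notes name Trim Galore 0.6.0, STAR 2.7.8a and the build GRCm38.p6 (mm10); the annotation release is not given in the sources used here. The authors deposited raw counts per gene, 1 table per library, in the layout of STAR with both strands, forward and reverse, and the reverse strand was used (94.5% to 95.7% of stranded gene counts). Entries that name no gene (unmapped 3.86% to 5.66%, multimapping 18.3% to 21.4%, no feature 3.14% to 4.55%, ambiguous 1.02% to 1.16%) were left out. Of the IDs, 54487 had a symbol.

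Counts were tested in R 4.3.3 with edgeR 4.0.16 and limma 3.58.1: filterByExpr (minimum count 10, total 15) kept 15233 genes, TMM scaled the libraries, and all 4 groups entered a single robust quasi-likelihood model (16 residual degrees of freedom, biological coefficient of variation 15.3%). It gave the cold response of each genotype, the genotype difference at each temperature and the interaction. P values were adjusted over every gene tested (Benjamini-Hochberg), and 0.05 was the threshold. The SE is the log2 change divided by the square root of F, and intervals are 95%. Log2 CPM used a prior count of 2. RPKM is CPM per kilobase of the union of exons in GENCODE M21. Alternatives, among them DESeq2 1.42.0, are given in the closing section, and those for the correlations were chosen after seeing the data. The intermediate WT libraries were also picked from these data, by their place on the first principal component. Leaving them out sets the WT groups further apart on that component. The fits were tested on simulated data. Of genes changed 1.5-fold, 48% were called for cold in WT, 51% for knockout in cold and 32.7% for the interaction. At 2-fold these shares were 79.6%, 83.7% and 72%. A change of 1.5-fold was thus often missed in the simulations, most often in the interaction. At 1.4-fold the shares were 50%, 62% and 18%. Each share rests on 49 or 50 genes. Few genes changed there: for cold in WT 145 of 14976 were called, against 56.4% of tested genes in the data. For knockout in cold 149 of 14994 were called, against 7.7%. With fewer calls the adjustment is stricter, so these shares do not give the miss rates of those comparisons. Libraries of a group differed by 13.9 to 97.1 times counting error (chi-square per degree of freedom), so no pair differed by counting error alone. This does not tell whether the libraries came from separate mice. The members and gene lists were chosen with earlier results of these data known. Named genes were the members, Cebpb, up to 6 called genes of largest change in each list, the 5 genes most like each member by each measure, and protein-coding genes within 250 kb. A single gene that the rule would name is not reported here.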

Additional observations from a re-analysis of the deposited data

Results flagged for a closer look

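Ucp2 in WT_RT replicate 4 was 51.0 CPM, apart from the other 4 libraries of its group: the gap to the nearest was more than 0.71 of the range of the group. Of 12 groups of 5 libraries of the members checked, 1 stood out in this way, and chance flags about 1 in 20 groups. Zic1, a factor of brown fat, differed between the cold responses of the genotypes by 0.86 on the log2 scale (adjusted p = 0.0243, edgeR): in the cold it fell in WT (-0.39) and rose in KO (0.47). Adrb3 differed by -1.44 (adjusted p = 0.0261), falling more in KO.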

How the results depend on the processing

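Of the 15 results for Ucp1, Ucp2 and Ucp3, all 15 kept their direction and side of the threshold with RLE scaling, counts of both strands, mitochondrial genes left out, the macrophage term and the replicate block. The labels number the libraries of a group and state no pairing by number. Over 30 same-numbered pairs the correlations of deviations ran from -0.21 to 0.30, and 8 were over 0.1. In 9 of the 30 the best match in the other group had the same number. These values do not settle whether the number pairs libraries. The replicate block gave Ucp3 knockout in cold 0.47 (edgeR adjusted p = 0.0112, against 0.0342 without the block) and 383 called genes for knockout at RT. Ucp3: knockout in cold was lost with no expression filter (0.44) and with only the groups compared (0.46), and leaving out 1 library gave 0.37 to 0.56, called in 15 of 20 fits. Ucp2: knockout in cold passed with DESeq2 (0.63), with only the groups compared (0.64) and without both intermediate WT libraries (0.68), and leaving out 1 library gave 0.52 to 0.72, called without WT_RT replicate 4 or KO_cold replicate 5. Ucp2: cold in WT passed without both intermediate libraries (0.50) and leaving out 1 library gave 0.23 to 0.55. Ucp2: cold in KO was lost with the muscle term (0.53), a term that itself differed between RT and cold in KO. Leaving out 1 library gave Ucp1: knockout at RT -0.18 to 0.035, positive without WT_RT replicate 5, and Ucp2: knockout at RT -0.015 to 0.30, negative without KO_RT replicate 4; neither was called. With the muscle term, the falls of Ckmt2, Myh1 and Myh2 in WT in the cold turned to 1.35, 0.12 and 0.085, none called. Myh1 and Myh2 are among the markers averaged in that term, so the loss of their falls was built into the fit. The cause for Ckmt2 was not tested. Called genes for knockout at RT were 411, 629 with DESeq2 and 267 to 530 without 1 library, the lowest without WT_RT replicate 5; for the interaction they were 113, 269 with DESeq2, 74 without both intermediate libraries and 78 to 125 without 1. By the longest transcript, RPKM in WT_RT, WT_cold, KO_RT and KO_cold were 8.29, 10.3, 8.84 and 15.9 for Ucp2 and 90.2, 63.4, 83.0 and 87.4 for Ucp3. For the other named genes, 5479 of 5808 alternatives left the result as it was, 323 lost the call, 3 gained it and 3 reversed. The 30 correlations were recomputed under the alternatives, and 17 of the 720 values moved by 0.05 or more, the lowest to 0.68 (Ucp3 with Lrp11, without WT_cold replicate 3). Leaving out 1 library gave the interaction of Ucp1 0.08 to 0.30 and of Ucp2 0.33 to 0.65, Ucp3 cold in KO 0.0093 to 0.14, and Ucp3 knockout at RT -0.18 to -0.02, none called. Ucp2 had 869 to 2364 counts per library, so its spread was that of the libraries more than of counting.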
